A study of Mus musculus with 4 samples.

Results

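The CDK inhibitor genes are the 8 mouse genes Cdkn1a, Cdkn1b, Cdkn1c, Cdkn2a, Cdkn2b, Cdkn2c, Cdkn2d and Cdkn3. The rule that picks them goes by gene name and uses no measured value, and all 8 were found among the 23552 genes of the expression table. Their RNA levels were compared between c-Kit+ acute myeloid leukemia (AML) cells that overexpress the histone H3K9 methyltransferase Suv39h1 (SUV-OE) and their controls. The leukemia was induced by the fusion oncogene MLL-AF9 (MA9) in C57BL/6 mice, and c-Kit+ leukemic cells were enriched from the bone marrow of moribund animals. SUV-OE cells carried Suv39h1-eGFP overexpression and control cells carried control-eGFP overexpression, so eGFP and MLL-AF9 were shared by both groups. Each group had 2 libraries, replicates 3 and 4 for control and replicates 2 and 3 for SUV-OE, and all 4 belonged to RNA-seq batch 2. The constructs were delivered by lentivirus to leukemia cells that had been passaged through recipient mice, and the cells were sorted for eGFP before transplantation. How many mice stand behind a library is not given in the sources used here, so p-values measure only the spread between these libraries. In bulk RNA, fewer cells of a type and less RNA per cell cannot be told apart.

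Cyclin-dependent kinases (CDKs) drive cells through the division cycle when bound to cyclins, and CDK inhibitors hold them back. The Cip/Kip proteins p21 (Cdkn1a), p27 (Cdkn1b) and p57 (Cdkn1c) bind cyclin-CDK complexes, among them those of Cdk2. The INK4 proteins p16Ink4a (Cdkn2a), p15 (Cdkn2b), p18 (Cdkn2c) and p19Ink4d (Cdkn2d) bind Cdk4 and Cdk6 and keep D-type cyclins away from them. Cdkn3 is of another kind, a phosphatase that removes an activating phosphate from CDKs, and its RNA is known to be higher in dividing cells. In blood-forming cells these inhibitors are known for restraining the division of stem and progenitor cells.

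The upstream sequences of the 3 genes with the smallest p-values among the 8 are shown because they hold different sets of cell cycle and general promoter motifs. They come from the RefSeq promoter table (GRCm38.p6), in which 7 of the 8 genes were matched, with 10 windows of 250 bases before an annotated start. Capitals mark motif matches on either strand. The motifs searched were the E2F site (TTTCCCGC, TTTGGCGC or TTTCGCGC), the CHR (cell cycle homology region, with the letters TTTGAA, or alternatively with TTCGAA), the GC box (GGGCGG), the CCAAT motif itself, the E-box (CACGTG), the FOXO site (GTAAACA) and the CRE (TGACGTCA), and no match in a window overlapped another. The window of Cdkn3 is chr14:46760291-46760540 on the plus strand, that of Cdkn1b is chr6:134920151-134920400 on the plus strand, and that of the distal start of Cdkn2a, which gives the Arf transcript, is chr4:89294654-89294869 on the minus strand. The last is 216 bases long because bases inside an annotated exon were left out.
Cdkn3: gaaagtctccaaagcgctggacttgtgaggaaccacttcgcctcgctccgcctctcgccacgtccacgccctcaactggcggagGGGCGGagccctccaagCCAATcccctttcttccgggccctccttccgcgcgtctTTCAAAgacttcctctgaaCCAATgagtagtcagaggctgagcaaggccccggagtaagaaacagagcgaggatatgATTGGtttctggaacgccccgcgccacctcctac
Cdkn1b: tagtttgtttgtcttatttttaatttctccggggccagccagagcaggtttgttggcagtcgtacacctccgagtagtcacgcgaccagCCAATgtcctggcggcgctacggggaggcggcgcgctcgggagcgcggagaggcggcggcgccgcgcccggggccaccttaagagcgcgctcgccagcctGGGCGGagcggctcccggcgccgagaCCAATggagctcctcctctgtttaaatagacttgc
Cdkn2a, distal start: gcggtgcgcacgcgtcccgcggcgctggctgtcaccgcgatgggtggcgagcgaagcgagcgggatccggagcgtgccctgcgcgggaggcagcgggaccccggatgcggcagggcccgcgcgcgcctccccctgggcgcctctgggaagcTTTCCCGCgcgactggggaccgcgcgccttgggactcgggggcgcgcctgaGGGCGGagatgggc

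The Cdkn3 window held a CHR on the minus strand, printed as its reverse complement, 111 bases before the start. It also held 3 CCAAT motifs, the first bases of which lay 149, 92 and 34 bases before the start, and 1 GC box. CCAAT motifs and the CHR are known from promoters of genes expressed late in the cell cycle. The Cdkn1b window held 2 CCAAT motifs, at 161 and 35 bases, and 1 GC box, and the distal Cdkn2a window held an E2F site 99 bases before its start and 2 GC boxes, at 48 and 14 bases, the second of which lies in the bases left out. Among 32817 mouse promoter windows of 250 bases, 17.1% held a CHR, 33.8% a CCAAT motif, 32.7% a GC box and 1.53% an E2F site. The window at the proximal Cdkn2a start, which gives p16Ink4a, held none of the motifs searched. Members not printed held some of the same motifs. The Cdkn2b window held a CHR on the minus strand, 161 bases before its start. GC boxes lay in windows of Cdkn1a, Cdkn2c and Cdkn2d, and a CCAAT motif in that of Cdkn2d. These matches are descriptions of letters, and no binding was measured here.

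The targeted gene checked the labels. Suv39h1 had an FPKM (fragments per kilobase of exon, scaled to library size) of 12.4 and 12.4 (control) against 75.3 and 81.2 (SUV-OE), and its log2 difference of 2.56 had a limma adjusted p of 0.00866. Kit, the surface marker used for enrichment, had an FPKM of 20.4, 19.2, 28.6 and 25.4 in control replicates 3 and 4 and SUV-OE replicates 2 and 3. The depth recovered from the FPKM was 20100247 to 23586661 reads per library. The deposited FPKM had been divided by smaller totals, 16873770 to 19453058 reads, so 3 reads on a gene of 1 kb were worth 0.154 to 0.178 FPKM. Several marker lists of other cells had sums that did not overlap between the groups. Summed FPKM was 3070 to 4796 in control and 8601 to 10653 in SUV-OE for 11 neutrophil markers, and 21.2 to 29.8 against 48.3 to 117 for 11 B-lymphoid markers. For 8 megakaryocyte markers it was 6.90 to 13.1 against 25.01 to 29.4. Mast and basophil markers summed to 91.3 to 114 against 172 to 182, and endothelial markers, of which only Pecam1 was high enough to be tested, to 17.7 to 24.7 against 65.3 to 72.3. Cpa3 carried the mast and basophil separation (21.3 and 43.5 FPKM in control against 112 and 103 in SUV-OE). Of the 5 tested mast and basophil genes, 3 were higher and 2, Mcpt8 and Hdc, lower. The endothelial sum was mostly Pecam1 (16.7 and 23.3 against 70.3 and 64.1). Among the low endothelial genes, Kdr, Tek, Emcn and Cldn5 were above control, Cdh5 overlapped and Flt1 was below. Erythroid markers (40.0 to 167 against 122 to 152), monocyte markers (382 to 665 against 385 to 423) and T and NK markers (75.6 to 115 against 78.5 to 84.9) overlapped between groups. Single genes carried these sums, Ly6c2 that of monocytes (281 and 545 FPKM in control against 229 and 269 in SUV-OE), Nkg7 that of T and NK cells (73.0 and 112.1 against 75.5 and 82.3) and the hemoglobin genes much of the erythroid one. The erythroid genes Car1 (limma adjusted p = 0.0280) and Ermap (limma adjusted p = 0.0434) rose. Of 11 erythroid genes, 5 had SUV-OE above control without overlap (25.4% of all tested genes) and 1 below (28.4%). Of the tested markers, 10 of 11 neutrophil, 9 of 10 B-lymphoid, 10 of 11 erythroid and 7 of 9 monocyte genes were higher in SUV-OE. Of all tested genes, 47.0% were higher. The 7 monocyte genes were above control without overlap, as were 25.4% of all tested genes. No listed marker was at 0 in all 4 libraries. The part of these other cells in the results for the CDK inhibitor genes was not tested.

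None of the 8 CDK inhibitor genes was a differentially expressed gene (DEG) between SUV-OE and control. DEGs were genes with a Benjamini-Hochberg adjusted limma p below 0.05 and a log2 fold change of 1 or more in either direction, which held for 1.22% of the 13736 tested genes. All 8 members passed the filter of a mean FPKM of at least 0.5 that decided which genes were tested. At any fold change, 0 of 8 had a limma adjusted p-value under 0.05, where 1.29% of all tested genes did. At an unadjusted p-value under 0.05 there were 3 of 8, against 20.7% of all tested genes. Cdkn3 and Cdkn2a were the 2 with lower values in SUV-OE (10.4% of all tested genes), and Cdkn1b was the 1 with higher values (10.3%). When limma-voom was run on the reads recovered from the FPKM, 1 of 8 genes, Cdkn3, had an adjusted p-value under 0.05, where 6.16% of all genes did. With limma-voom scaled to all recovered reads, an alternative added after the data were seen, it was 1 of 8 again, now Cdkn1b, against 7.09% of all genes. None of the 8 was a DEG in either fit, where 4.67% and 5.39% of all genes were.

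**Figure D1:**
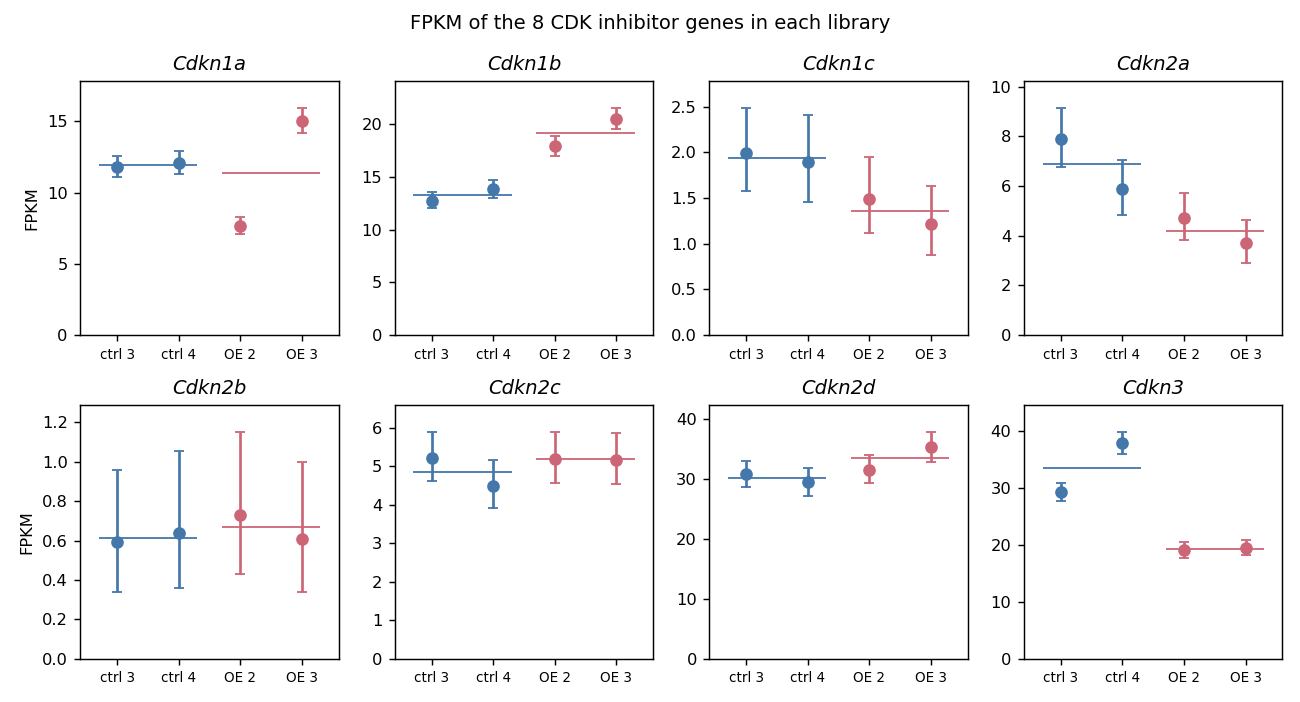
FPKM of each CDK inhibitor gene (y axis, from 0, with its own scale per panel) in control replicates 3 and 4 and SUV-OE replicates 2 and 3 (x axis). Points are libraries, bars are exact 95% Poisson intervals of the recovered reads, which cover counting error only, and horizontal lines are group means; Cdkn1b, Cdkn1c, Cdkn2a, Cdkn2d and Cdkn3 have groups that do not overlap, and the SUV-OE libraries of Cdkn1a lie 1.96-fold apart.

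Among the Cip/Kip genes, Cdkn1b and Cdkn1c had groups that did not overlap, in opposite directions, and Cdkn1a did not separate the groups. Cdkn1b (ENSMUSG00000003031, chromosome 6, 134920401 to 134925513, plus strand, mm10), which encodes p27, had an FPKM of 12.7 and 13.8 (control) against 17.9 and 20.5 (SUV-OE). Both SUV-OE libraries were above both control libraries, with 1.29-fold between the nearest libraries of the groups, and the SUV-OE mean was 44.4% higher. The log2 difference was 0.50 ± 0.12 (standard error, with a 95% confidence interval 0.17 to 0.82, limma adjusted p = 0.139), which did not pass the test.

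Cdkn1a (ENSMUSG00000023067, chromosome 17, 29090976 to 29100727, plus strand), which encodes p21, a well-known target of p53, had an FPKM of 11.8 and 12.1 (control) against 7.68 in SUV-OE replicate 2 and 15.0 in replicate 3. One SUV-OE library was below and the other above both controls. The control libraries differed 1.02-fold and the SUV-OE libraries 1.96-fold, and the counting intervals of the SUV-OE libraries, 7.08 to 8.32 and 14.2 to 15.9, did not meet. The log2 fold change of -0.14 ± 0.30 (standard error, with a 95% confidence interval -0.93 to 0.66, limma adjusted p = 0.830) had the widest interval of the 8 genes. It was 0.31 without SUV-OE replicate 2 and -0.58 without SUV-OE replicate 3, so each of these libraries decided its sign or its size.

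Cdkn1c (ENSMUSG00000037664, chromosome 7, 143458339 to 143461050, minus strand), which encodes p57, was the lowest of the family after Cdkn2b. Its FPKM was 1.99 and 1.89 (control) against 1.49 and 1.21 (SUV-OE), from 79, 65, 54 and 44 recovered reads. Both SUV-OE libraries were below both controls, and the SUV-OE mean was 30.3% lower. The log2 difference was -0.32 ± 0.15 (standard error, with a 95% confidence interval -0.71 to 0.07, limma adjusted p = 0.306) on the log2(FPKM + 1) scale, which understates differences of low genes. It was -0.50 with a pseudocount of 0.1, -0.52 with limma-voom on recovered reads and -0.43 with limma-voom scaled to all recovered reads. An annotated antisense gene overlaps Cdkn1c and another transcript lies antisense to Cdkn1a, and the library kit does not mark strand, so their reads cannot be told apart.

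Of the INK4 genes, Cdkn2a was lower in both SUV-OE libraries, and the other members lay close to their control levels. Cdkn2a (ENSMUSG00000044303, chromosome 4, 89274471 to 89294653, minus strand) encodes p16Ink4a and, from another reading frame, p19Arf, and the FPKM does not separate these transcripts. Its FPKM was 7.90 and 5.87 (control) against 4.71 and 3.70 (SUV-OE). The groups did not overlap, but the control libraries differed 1.35-fold, more than the 1.24-fold between the nearest libraries of the groups. The SUV-OE mean was 38.9% lower, with a log2 fold change of -0.59 ± 0.19 (standard error, with a 95% confidence interval -1.08 to -0.10, limma adjusted p = 0.187).

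Cdkn2d (ENSMUSG00000096472, chromosome 9, 21288410 to 21291407, minus strand), the most abundant INK4 gene here, had an FPKM of 30.7 and 29.4 (control) against 31.5 and 35.3 (SUV-OE). The SUV-OE libraries were above the controls by as little as 1.03-fold, less than the spread within either group. The log2 difference of 0.14 ± 0.12 (standard error) had a limma adjusted p of 0.538. It was 0.26 under quantile normalization, 0.07 without SUV-OE replicate 3 and 0.22 without SUV-OE replicate 2.

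Cdkn2c (ENSMUSG00000028551, chromosome 4, 109660876 to 109667189, minus strand), which encodes p18, had an FPKM of 5.22, 4.50, 5.20 and 5.17 in control replicates 3 and 4 and SUV-OE replicates 2 and 3. The SUV-OE libraries lay between the controls, and the 95% confidence interval of the log2 fold change, -0.25 to 0.41, bounded a difference in either direction (limma adjusted p = 0.751). Cdkn2b (ENSMUSG00000073802, chromosome 4, 89306299 to 89311039, minus strand), next to Cdkn2a on the chromosome, had an FPKM of 0.590, 0.638, 0.728 and 0.606 in the same order. These came from 15 to 18 recovered reads per library, the groups overlapped, and the interval of its log2 fold change ran from -0.38 to 0.48 (limma adjusted p = 0.898). The pseudocount of 1 narrows this interval for so low a gene, since the standard error of 0.17 became 0.38 with a pseudocount of 0.1 and 0.43 with limma-voom.

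Cdkn3 (ENSMUSG00000037628, chromosome 14, 46760541 to 46771669, plus strand), the phosphatase, had the largest absolute log2 fold change of the 8 genes. Its FPKM was 29.2 and 37.8 (control) against 19.0 and 19.5 (SUV-OE). Both SUV-OE libraries were below both controls, with 1.497-fold between the nearest libraries of the groups, while the control libraries differed 1.29-fold and the SUV-OE libraries 1.02-fold. The SUV-OE mean was 42.5% lower, and the log2 difference was -0.76 ± 0.16 (standard error, with a 95% confidence interval -1.16 to -0.35, limma adjusted p = 0.103). With limma-voom on the recovered reads it was -0.78 with an adjusted p of 0.0421, and with scaling to all recovered reads it was -0.69 with an adjusted p of 0.0509. For Cdkn1b the same fits gave 0.53 (limma-voom adjusted p = 0.0797) and 0.63 (limma-voom adjusted p = 0.0452). The calls for these 2 genes thus differed between the 2 limma-voom fits, which used the same reads and genes and differed in the library totals for scaling. The test on log2(FPKM + 1) called neither gene, and it also differs from both fits in the genes tested and the variance weights. The direction of each gene was the same in every one of these fits.

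**Figure D2:**
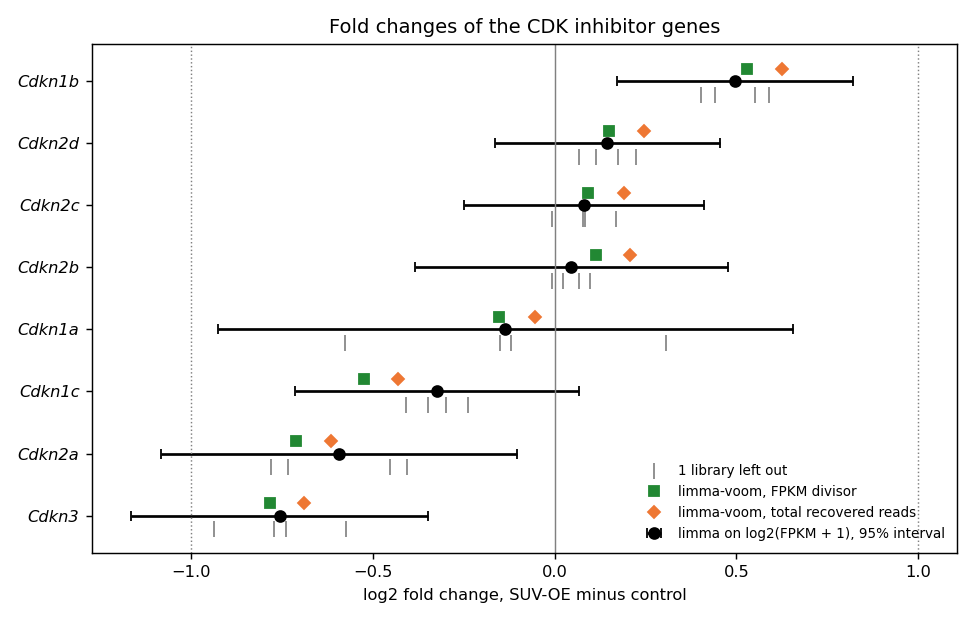
Log2 fold change, SUV-OE minus control (x axis), of the 8 genes ordered by size. Black points with bars are limma estimates on log2(FPKM + 1) with 95% confidence intervals, squares and diamonds are the limma-voom fits, grey ticks are fits without 1 library, and dotted lines mark a log2 fold change of 1 in either direction; the intervals of Cdkn1b, Cdkn2a and Cdkn3 do not reach 0, and the ticks of Cdkn1a run from -0.58 to 0.31.

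In 5 of the 8 genes the groups did not overlap, 2 with SUV-OE above (25.4% of all tested genes) and 3 with SUV-OE below (28.4%). Across all tested genes 53.9% had groups that did not overlap in either direction. Log2 fold changes were above 0 for 4 of 8 members, against 47.0% of tested genes, and the median of the members was -0.05 beside -0.02 over all tested genes. Of all tested genes, 2.36% had a smaller log2 fold change than Cdkn3 and 4.56% a smaller one than Cdkn2a, and 90.4% had a smaller one than Cdkn1b.

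**Figure D3:**
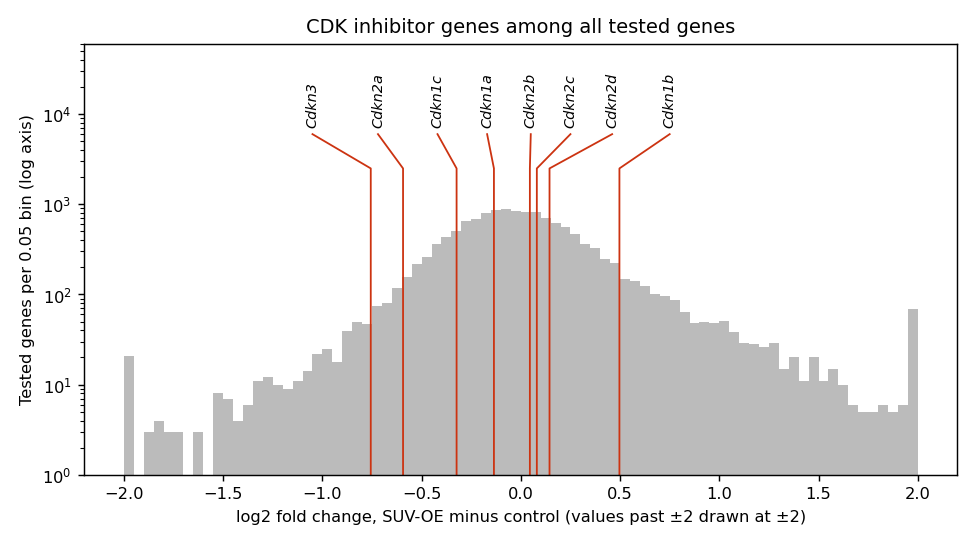
Histogram of the log2 fold changes of the 13736 tested genes (x axis, SUV-OE minus control, in bins of 0.05; y axis, genes per bin on a log scale), with red lines at the 8 CDK inhibitor genes. Values past 2 in either direction are drawn at 2; Cdkn3 at -0.76 and Cdkn2a at -0.59 lie in the lower tail and Cdkn1b at 0.50 in the upper part.

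The order of the members by FPKM, a measure per length of exon, was Cdkn3, Cdkn2d, Cdkn1b, Cdkn1a, Cdkn2a, Cdkn2c, Cdkn1c and Cdkn2b in control. Cdkn3 and Cdkn2d overlapped there. In SUV-OE, Cdkn2d came first, Cdkn3 and Cdkn1b overlapped behind it, and Cdkn2c stood above Cdkn2a. The summed FPKM of all 8 genes was 100.2 and 106.0 (control) against 88.3 and 101.0 (SUV-OE). The sum of the Cip/Kip genes was 26.6, 27.8, 27.1 and 36.7, and that of the INK4 genes 44.4, 40.4, 42.2 and 44.7, in control replicates 3 and 4 and SUV-OE replicates 2 and 3. Neither family sum separated the groups.

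The shares of single genes in the sum are given for the genes with the lowest p-values, Cdkn1b and Cdkn3. Cdkn1b made up 12.7% and 13.04% of the 8-gene sum (control) against 20.3% and 20.3% (SUV-OE), and Cdkn3 made up 29.1% and 35.6% against 21.6% and 19.3%. Within the Cip/Kip sum, Cdkn1b took 48.0% and 49.7% (control) against 66.1% and 55.8% (SUV-OE). The ratio of Cdkn1b to Cdkn1c FPKM was 6.40 and 7.32 (control) against 11.99 and 16.9 (SUV-OE). These shares and ratios are descriptions and were given no test.

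**Figure D4:**
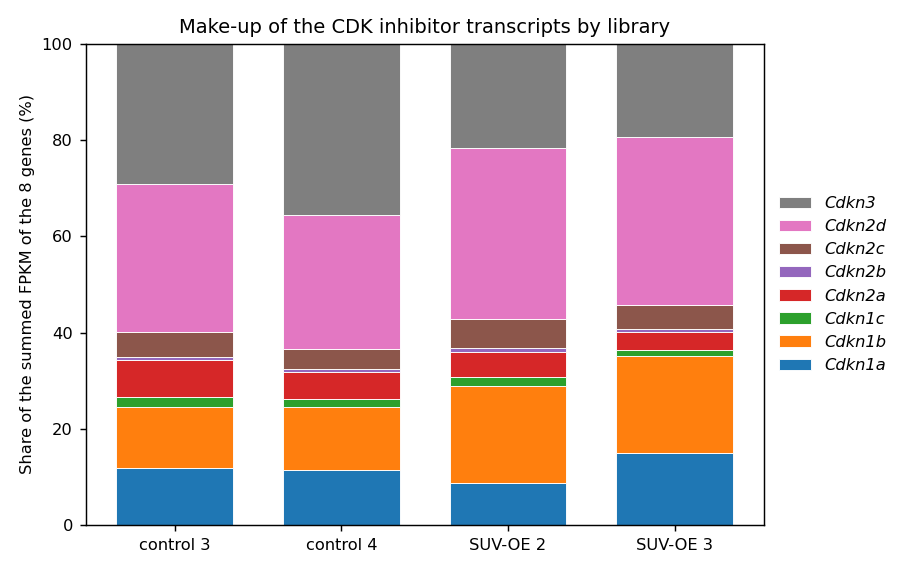
Share of the summed FPKM of the 8 genes (y axis, percent) that each gene took in each library (x axis). Each bar is 1 library and each color 1 gene; Cdkn1b is wider and Cdkn3 narrower in both SUV-OE libraries than in both controls.

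Among the cyclins and CDKs that these proteins hold back, 12 of 13 listed genes were tested, with 3 higher and 9 lower in SUV-OE, a median log2 fold change of -0.28, and 1 DEG. The DEG was Ccnd2, a D-type cyclin, which rose from an FPKM of 0.792 and 1.02 (control) to 4.62 and 4.45 (SUV-OE), a log2 difference of 1.54 ± 0.14 (standard error, with a limma adjusted p = 0.0284). Both SUV-OE values lay above both controls. The limma adjusted p of Ccnd2 was 0.120 without the filter on low values, and its log2 difference was 1.45 to 1.63 when 1 library was left out. Ccnd1, another D-type cyclin, was at 0.677 and 0.503 against 1.78 and 1.52 (0.74, limma adjusted p = 0.116), and Ccnd3 overlapped between groups. Of the partners of the INK4 proteins, Cdk6 was at 99.4 and 92.8 against 153.8 and 116.4 (limma adjusted p = 0.244), and Cdk4 had a log2 fold change of -0.22 (limma adjusted p = 0.394). Ccne1, a partner of Cdk2, was at 8.94 and 9.60 against 5.27 and 5.26 (-0.71, limma adjusted p = 0.0692), and the mitotic cyclin Ccnb1 was at 23.8 and 23.2 against 17.3 and 16.2 (-0.46, limma adjusted p = 0.125). Cdk2, Cdk1, Ccna2 and Ccne2 had log2 fold changes of -0.11, -0.37, -0.41 and -0.35, and none passed the test.

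Other genes around the inhibitors were given by list, as counts and a median. Beside them, 47.0% of all tested genes were higher, with a median of -0.02, and 1.29% had a limma adjusted p-value under 0.05. Of 13 RB and E2F genes, which the CDKs act on, 5 were higher and 8 lower with a median of -0.12, and 0 had a limma adjusted p-value under 0.05. The smallest p-values were those of E2f6, a repressor (-0.30, limma adjusted p = 0.223), and Rb1 (0.27, limma adjusted p = 0.279). Of 12 genes of ubiquitin turnover, which degrades p27 and p21, 2 were higher and 10 lower with a median of -0.12 and 0 calls. Pcna (-0.54, limma adjusted p = 0.219) and Skp2, the F-box protein that targets p27 (-0.33, limma adjusted p = 0.279), had the smallest p-values there. Of 24 tested transcriptional regulators of the inhibitors, 15 were higher and 9 lower with a median of 0.11 and 0 calls, led by Gfi1b at 0.112 and 0.130 against 2.86 and 1.87 (1.57, limma adjusted p = 0.0537) and Foxo4 at 8.30 and 8.09 against 12.97 and 12.93 (0.60, limma adjusted p = 0.0829).

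Of 15 other regulators of CDK activity, 3 were higher and 12 lower with a median of -0.24 and 0 calls, led by Mnat1, a subunit of the CDK-activating kinase (-0.68, limma adjusted p = 0.0973), and Wee1, a kinase that inhibits Cdk1 (-0.76, limma adjusted p = 0.148). Of 19 tested p53 targets, 9 were higher and 10 lower with a median of -0.13, and 2 rose: Trp53inp1 (1.08, limma adjusted p = 0.0423) and Perp (1.46, limma adjusted p = 0.0434). Both calls were lost without the filter (limma adjusted p of 0.129 and 0.137), and that of Perp also with a pseudocount of 0.1 (0.0516). With any 1 library left out, no gene of the whole table was a DEG, and the log2 differences were 1.05 to 1.11 for Trp53inp1 and 1.33 to 1.60 for Perp. Of 20 genes of the G2 and M phases, 6 were higher and 14 lower with a median of -0.16 and 0 calls, with Ccnb1 and Aurka (-0.52, limma adjusted p = 0.139) at the smallest p-values.

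**Figure D5:**
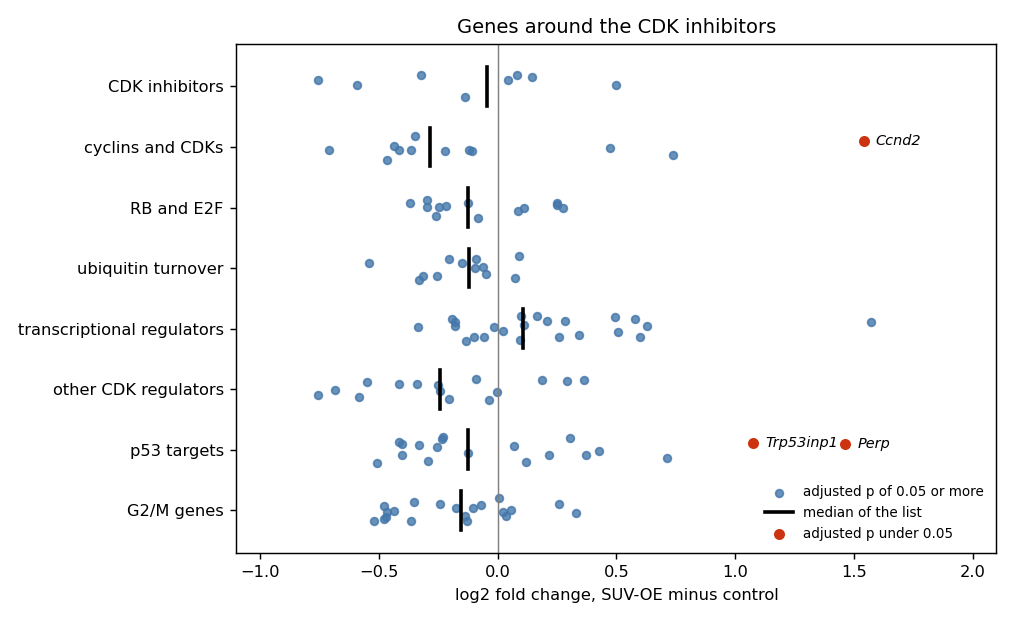
Log2 fold change, SUV-OE minus control (x axis), of each tested gene in the CDK inhibitor list and 7 lists around it (y axis, with vertical scatter added for legibility). Black lines are list medians and red points are genes with a limma adjusted p-value under 0.05; these are Ccnd2, Trp53inp1 and Perp.

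Within 100 kb of a CDK inhibitor gene, 40 other genes were in the table and 27 were tested, with a median log2 fold change of -0.06. None passed limma's adjusted threshold, and 7 had an unadjusted p-value under 0.05 (20.7% of all tested genes), 5 higher and 2 lower. Of the 27 tested neighbours, 9 had SUV-OE above control without overlap and 9 below, where 53.9% of all tested genes had groups that did not overlap. Lockd, a noncoding RNA next to Cdkn1b that was named after its values were seen, had an FPKM of 0.231, 0.768, 0.779 and 1.05 in control replicates 3 and 4 and SUV-OE replicates 2 and 3 (limma adjusted p = 0.441).

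The genes with the pattern nearest to that of Cdkn3 over the 4 libraries were Bola3, Mtx2 and Tmem173, at Euclidean distances of 0.0643, 0.0820 and 0.0873 on the centred log2(FPKM + 1) scale. Bola3 had an FPKM of 12.01 and 15.0 (control) against 7.74 and 7.64 (SUV-OE). With 4 libraries such a likeness is a description only.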

How the data were processed

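RNA-seq of c-Kit+ leukemic cells was analysed for 2 control and 2 SUV-OE libraries. The authors used TruSeq RNA v2 libraries, paired-end HiSeq sequencing, CASAVA 1.8 and TopHat2 alignment to mm10, and deposited 1 FPKM value per gene and library, which the paper credits to Cufflinks. The annotation release is not given in the sources used here. The test was limma 3.58.1 (R 4.3.3) on log2(FPKM + 1), with group as the only term and an intensity trend, over the 13736 genes whose mean FPKM reached 0.5. DESeq2, the authors' tool for DEGs, takes counts, so only their thresholds were kept.

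Gene names and positions came from GENCODE M21 (mm10), which matched 23438 of 23552 genes. Reads were recovered from the FPKM steps, whole within a tolerance of 0.01 for 78.5% of genes at the M21 exon length and for 4923 more genes at another length. Cdkn1a, Cdkn2b, Cdkn2d and Cdkn3 were among the latter. Intervals and floors cover counting error only. limma-voom used genes whose mean reached 10 reads. On simulated data for the SUV-OE comparison (13244 genes, dispersion 0.01), limma called 89.2% of 195 genes seeded with a log2 change of 2 with the correct sign, beside 17 genes that had no seeded change. The largest member change, that of Cdkn3, was -0.76, so the simulation does not show how often changes of that size would be called.

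The members are defined by name alone, but this gene family and the lists were chosen with earlier results of these data known. Named genes were the members, Suv39h1, Kit, the binding partners, the genes with an adjusted p-value under 0.05 and the 2 smallest p-values of each pathway list, neighbours within 100 kb that passed the test, and the 3 nearest profiles. Lockd, Ly6c2, Nkg7, the erythroid, endothelial, mast and basophil marker genes and the overlapping transcripts were named outside this rule, after their values were seen. The 7 promoter motifs were listed at the same time as the gene lists. A p53 motif was tried later, after the sequences were read. Its full form had no match in a Cdkn1a window and a shortened form did, so neither was used. Alternatives were another pseudocount, other filters, normalizations and variance models, leaving out each library, and limma-voom. Protein sequences were not used here, and Cdkn1c was not matched in the promoter table.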

Additional observations from a re-analysis of the deposited data

How the results depend on the processing

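No paired analysis was possible because just 1 replicate number occurs in both groups. Over 13 alternatives, 97 of 103 log2 fold changes of the members kept their direction and their side of the threshold. Without the filter, with a mean FPKM of at least 1, without the intensity trend or with a robust one, the fold changes equal those reported. Their direction could therefore not change in those alternatives. The count of members with an adjusted p-value under 0.05 was 0 in the test reported. It was 1 in each limma-voom fit (Cdkn3 on recovered reads, Cdkn1b with scaling to all recovered reads). Those 2 fits share reads and genes and differ in the library totals used for scaling. Why each differs from the test reported was not tested. Over all genes, the median log2 fold change was -0.02 in the test reported. It was -0.01 in limma-voom on recovered reads and 0.08 in limma-voom with scaling to all recovered reads. Cdkn2b was at -0.10 under quantile normalization. Leaving out each library gave Cdkn1a -0.58 to 0.31, Cdkn2b -0.0076 to 0.10 and Cdkn2c -0.0086 to 0.17, and Cdkn3 stayed between -0.94 and -0.58, with the lone library assumed to vary like the other group. The 4 sign changes were in Cdkn1a, Cdkn2b (2) and Cdkn2c. The count of members whose groups do not overlap was 5 to 7 (47.6% to 55.9% of all genes in fits of all 4 libraries, 69.3% to 84.0% with 1 left out, where 1 library is set against 2). A mean FPKM of at least 1 left Cdkn2b untested. Over all genes, the 168 DEGs became 0 without the filter on low values or with any 1 library left out, and 667 and 770 in the limma-voom fits.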
